A study of Mus musculus with 8 samples.

Results

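The BMP ligands and antagonists described here are 10 genes, chosen by symbol from the 32285 features of the count tables: the ligand genes Bmp2, Bmp3, Bmp4, Bmp5, Bmp6 and Bmp7, and Nog, Grem1, Chrd and Bmper, whose proteins bind BMPs outside the cell. Their raw counts were read in nuclei of the petrous bone (PTB), which encloses the inner ear, and of the paraflocculus/flocculus (PF/F), the cerebellar lobules seated against it. The mice were Tbx1+/- animals, with 1 functional copy of the gene for the transcription factor Tbx1 in every cell, and WT littermates, taken at postnatal day 5.5 (P5.5). Each genotype and tissue had 2 libraries, and each library pooled the tissue of 5 mice. A library is therefore the replicate, and p-values measure the spread between pools rather than between animals.

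Bone morphogenetic proteins (BMPs) are secreted dimers that bind paired type I and type II serine/threonine kinase receptors, and the receptors phosphorylate SMAD1, SMAD5 and SMAD9, which enter the nucleus with SMAD4. Noggin, chordin and gremlin 1 bind the ligands and keep them from their receptors, and BMPER, a chordin-like protein, can hold BMPs back or present them depending on its context. The pathway is known for starting cartilage and bone formation, and in the cerebellum for acting on granule neuron progenitors.

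The files held 31076 annotated PTB nuclei of 15 types and 48237 annotated PF/F nuclei of 16 types. Annotated nuclei carried 33515253 to 43752949 UMIs (unique molecular identifiers, that is counted RNA molecules) per PTB library and 37700625 to 52902902 per PF/F library. Any pair of libraries shared 35 to 94 barcodes. For each library, the UMIs of all nuclei of a type were added together and are given as counts per 1000000 UMIs of those nuclei (CPM). The targeted gene, Tbx1, was at 38.9 and 39.4 CPM in the WT PTB libraries and at 26.3 and 35.7 CPM in the Tbx1+/- ones. The summed marker lists for chondrocytes, hypertrophic chondrocytes, osteoblasts, osteocytes and osteoclasts were highest in the PTB types of those names. The connective tissue list was highest in CT1. Single genes could lead elsewhere. Of the hypertrophic list, Spp1 and Mmp13 were highest in the type of that name. Col10a1 and Ihh were highest in matured chondrocytes, at 192 ± 83.8 and 50.8 ± 15.2 CPM (SD, n = 4 each). Of the osteoblast list, Alpl, Bglap, Ibsp and Sp7 were highest in osteoblasts and Col1a1 in matured osteoblasts. Runx2 was highest in the chondrocyte progenitor subtype CP1, at 8806 ± 448 CPM (SD, n = 4). CT2, annotated as connective tissue (CT), had the highest PTB level of the meningeal transporter gene Slc6a13, at 373 ± 104 CPM (SD, n = 4), and of Zic1, at 119 ± 8.36 CPM (SD, n = 4), but the summed meningeal list was highest in osteoblasts, through Col1a2. In the PF/F, the lists for Purkinje cells, astroglia, oligodendrocytes, meningeal, endothelial, pericyte and immune cells were highest in the types of those names. The GABA interneuron list was highest in differentiated GABA interneurons, as were its genes Gad1 and Pax2, while Gad2 was highest in the type labelled GABA.interneuron. The early rhombic lip type (RL.early) had the highest choroid plexus list, at 2574 ± 1397 CPM (SD, n = 4), so it is called here by its label only.

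In the PTB, all 10 genes had UMIs in each of the 15 types, whereas in the PF/F 21 of 160 combinations of gene and type had no UMI. Most of these fell in pericytes, endothelial nuclei, immune nuclei and Progenitors, small types of 216921 to 1290383 UMIs. The contrast between the tissues is not corrected for depth. The PTB annotation also holds only connective tissue, chondrocyte, osteoblast and osteoclast types, with no endothelial, pericyte or immune type. The tissues are thus not compared over like types, and a highest PTB level means the highest among these 15 types. Bmper and Bmp5 were high in 4 of the 6 subtypes of chondrocyte progenitors (CPs), Bmp6 stood out in CT2 and in the meningeal nuclei of the PF/F, and Bmp2, Bmp3 and Bmp4 had their highest PTB levels in matured osteoblasts. Chrd was highest in granule neuron progenitors (GNPs). No tests were run between cell types, because the types were made by clustering the same nuclei on the same genes. Levels are means over the 4 libraries of a tissue, WT and Tbx1+/- together, with the SD between them. The counts were not corrected for free RNA, and osteoclasts, which arise from blood-forming cells, are given for comparison with the skeletal types.

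**Figure D1:**
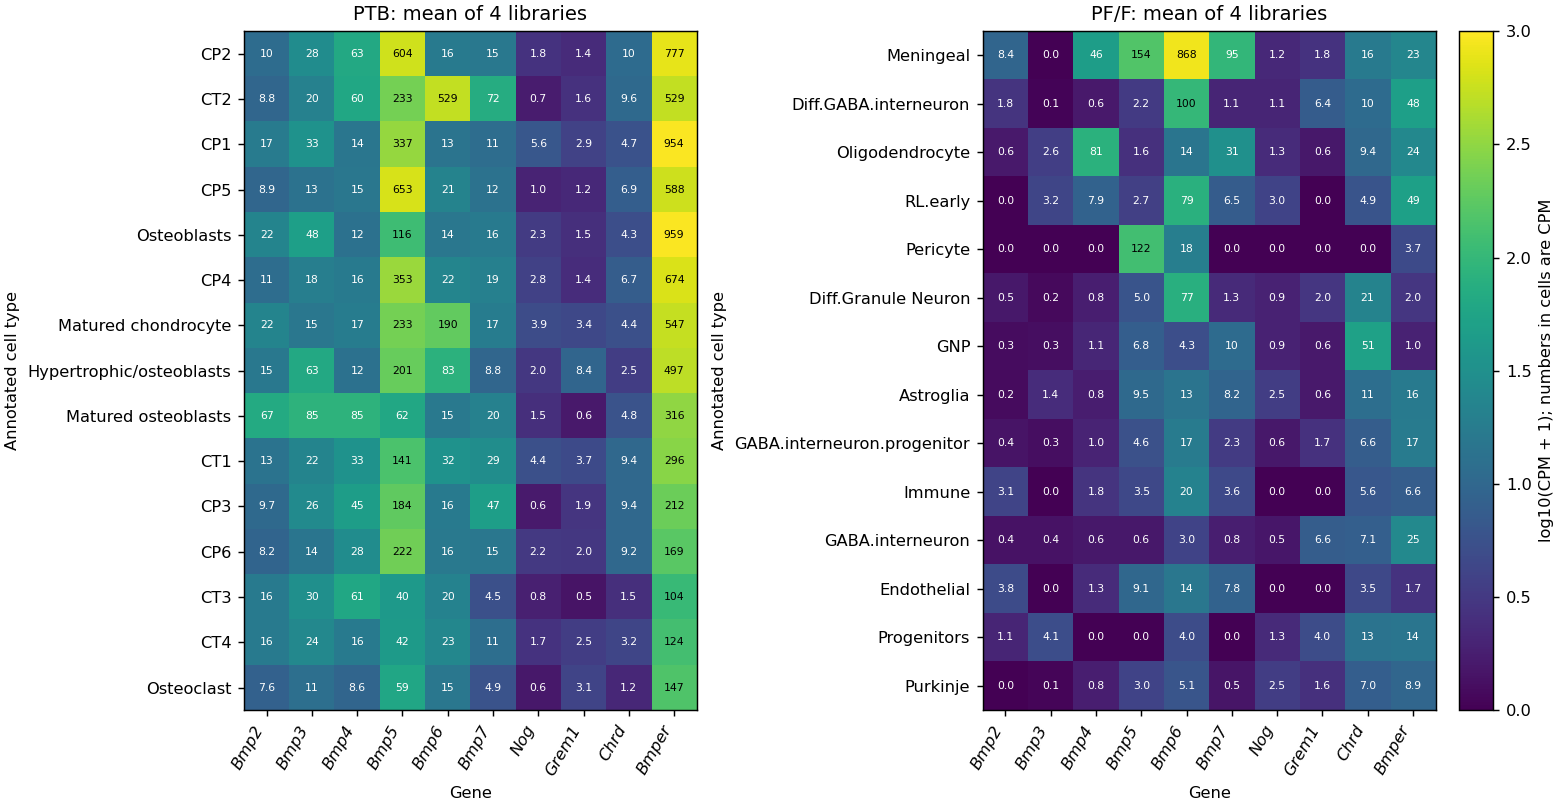
Mean level of the 10 genes in the 15 annotated cell types of the PTB (left) and in 14 of the 16 of the PF/F (right), as CPM in the cells and as log10(CPM + 1) in colour, over 4 libraries. Bmper and Bmp5 fill most PTB rows, from 104 to 959 CPM and from 40.1 to 653 CPM, while the brightest PF/F cell is Bmp6 in meningeal nuclei at 868 CPM.

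Bmp2 (ENSMUSG00000027358, GRCm38 chr2:133552159-133562885, plus strand) encodes a ligand used clinically to induce bone. In matured osteoblasts, annotated together with osteocytes, it was at 60.5 and 59.1 CPM in the WT libraries and at 81.8 and 67.1 CPM in the Tbx1+/- ones. The next types were osteoblasts, at 21.7 ± 3.69 CPM (SD, n = 4), and matured chondrocytes, at 21.6 ± 4.06 CPM (SD, n = 4). The libraries of matured osteoblasts lay above all osteoblast libraries, and the mean was 3.09 times as high. From osteoblasts downwards, each neighbour in the order overlapped the next within 1 SD, down to osteoclasts at 7.60 ± 1.92 CPM (SD, n = 4).

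Bmp3 (ENSMUSG00000029335, chr5:98854415-98884396, plus strand), whose protein opposes osteogenic BMPs rather than acting like them, was also highest in matured osteoblasts. Below them its order differed from that of Bmp2, which had 15.1 CPM in the type labelled hypertrophic chondrocyte/Osteoblasts. Matured osteoblasts had 98.3 and 56.6 CPM in WT and 103 and 81.2 CPM in Tbx1+/-, a mean of 84.9 ± 21.1 CPM (SD, n = 4). The type labelled hypertrophic chondrocyte/Osteoblasts had 63.0 ± 7.43 CPM (SD, n = 4) and osteoblasts 48.0 ± 7.65 CPM (SD, n = 4). Matured osteoblasts overlapped the hypertrophic type within their spread, and osteoblasts lay above CP1, at 33.2 ± 4.61 CPM (SD, n = 4), in all libraries. Osteoclasts were at 11.4 ± 4.03 CPM (SD, n = 4).

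Bmp4 (ENSMUSG00000021835, chr14:46383520-46390669, minus strand) encodes a close relative of BMP2. Its level in matured osteoblasts was almost the same in every library, at 88.2 and 80.5 CPM in WT and 88.7 and 82.0 CPM in Tbx1+/-. CP2 at 62.9 ± 15.2 CPM, CT3 at 60.8 ± 12.3 CPM and CT2 at 59.9 ± 10.4 CPM (SD, n = 4 each) followed. These 3 types did not differ from each other beyond their spread, and all their libraries were below those of matured osteoblasts. CP1 and CP5, by contrast, had 14 and 15 CPM of Bmp4, so the CP subtypes rich in Bmp5 and Bmper were not all rich in Bmp4. Bmp4 shares 1764 bases with the antisense gene Gm15222 and 89 bases with Gm15217. The study's methods name the library kit and Cell Ranger but no strand setting. The antisense genes Gm15222, Gm26903 and 4930579J19Rik were counted as genes of their own. Whether reads from an overlapping gene entered the Bmp4 count was not tested. The same holds for Bmp5, Bmp6 and Chrd with the overlapping genes named with them.

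Promoter sequences were taken from RefSeq for GRCm38.p6, which held entries for 6 of the 10 genes (Bmp4, Bmp5, Bmp6, Grem1, Chrd and Bmper). The stretches before the starts of Bmp4, Bmp5 and Bmper are shown because these 3 carry the contrasts between CP subtypes, and each ends at the base before the annotated first exon. Capitals mark the GC box, GGGCGG on either strand. The others searched on both strands were the RUNX letters TGTGGT, the SOX letters AACAAT, the TATA box TATAAA and the GC-rich SMAD letters GGCGCC, which can overlap a GC box.
Bmp4, chr14:46390670-46390919, minus strand: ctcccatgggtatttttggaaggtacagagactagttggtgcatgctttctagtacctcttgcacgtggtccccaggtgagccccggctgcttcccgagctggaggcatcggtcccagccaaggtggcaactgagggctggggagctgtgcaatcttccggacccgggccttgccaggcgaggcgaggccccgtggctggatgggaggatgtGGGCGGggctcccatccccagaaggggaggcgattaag
Bmp5, chr9:75775115-75775363, plus strand: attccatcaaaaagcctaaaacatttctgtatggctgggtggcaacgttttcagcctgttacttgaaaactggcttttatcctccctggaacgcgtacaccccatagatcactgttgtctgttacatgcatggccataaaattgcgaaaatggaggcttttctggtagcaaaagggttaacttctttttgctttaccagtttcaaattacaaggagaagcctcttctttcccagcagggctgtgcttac
Bmper, chr9:23222826-23223075, plus strand: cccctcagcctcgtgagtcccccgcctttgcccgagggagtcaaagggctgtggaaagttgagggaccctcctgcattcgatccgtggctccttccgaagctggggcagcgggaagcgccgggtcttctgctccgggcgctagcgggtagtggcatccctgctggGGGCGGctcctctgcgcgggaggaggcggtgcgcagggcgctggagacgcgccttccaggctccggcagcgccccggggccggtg
The Bmper stretch was 71.6% G or C with 24 CpG pairs, the Bmp4 stretch 63.2% with 11, and the Bmp5 stretch 43.0% with 4, beside a median of 52.4% G or C over 32851 promoters. Bmper held 1 GC box at 85 bases before the start and Bmp4 held 1 at 38 bases. Bmp5 held none of the 5 motifs in this window. A GC box was present in 32.7% of all promoters, the RUNX letters in 14.0%, the SOX letters in 9.42%, the TATA box in 12.4% and the SMAD letters in 9.59%. Bmp5 and Bmper, which both ran high in CP1, CP2, CP4 and CP5, differed in base composition before their starts.

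Bmp5 (ENSMUSG00000032179, chr9:75775364-75900310, plus strand), whose loss gives the short-ear mouse with its altered skeletal elements, had its 4 highest levels in CP subtypes. CP5 had 609 and 649 CPM in WT and 650 and 703 CPM in Tbx1+/-. CP2 followed at 604 ± 21.5 CPM (SD, n = 4), and the libraries of CP5 and CP2 overlapped. CP4 at 353 ± 25.0 CPM and CP1 at 337 ± 43.0 CPM (SD, n = 4 each) also overlapped each other, and lay below every CP2 library. CP6 and CP3 were lower again, at 222 ± 23.6 and 184 ± 26.4 CPM (SD, n = 4 each). Matured chondrocytes had a wide spread, with 250 and 192 CPM in WT and 336 and 155 CPM in Tbx1+/-. Along the bone-forming types the level went from 201 ± 5.48 CPM in the hypertrophic type to 116 ± 6.78 CPM in osteoblasts and 62.0 ± 3.15 CPM in matured osteoblasts (SD, n = 4 each). The last value overlapped that of osteoclasts, 59.0 ± 1.79 CPM (SD, n = 4). Bmp5 shares 2468 bases with the antisense gene Gm26903 and 1454 bases with Gm47723 on its own strand.

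**Figure D2:**
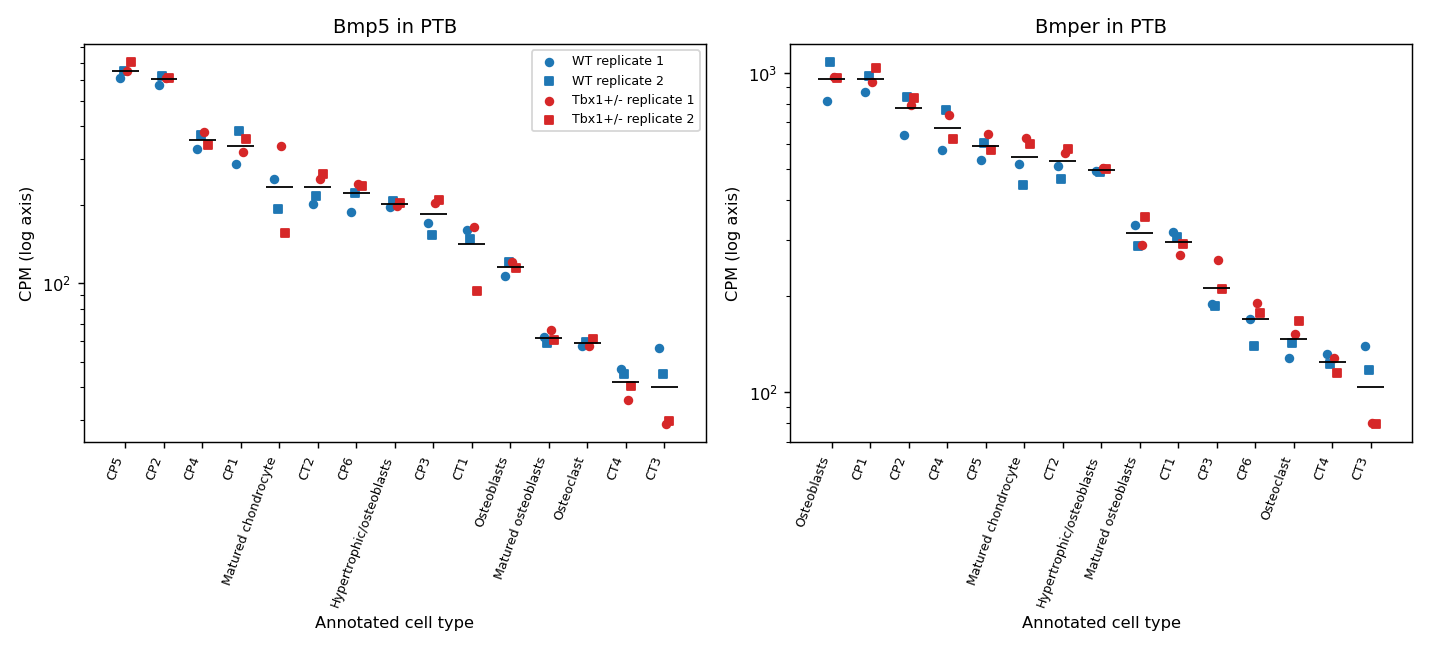
Level of Bmp5 (left) and Bmper (right) in each PTB cell type, in CPM on a log axis. Each point is 1 library (blue WT, red Tbx1+/-, circles replicate 1, squares replicate 2) and each line the mean of the 4 libraries. Bmp5 falls from 653 CPM in CP5 to 40.1 CPM in CT3, and Bmper from 959 CPM in osteoblasts to 104 CPM in CT3.

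Bmp6 (ENSMUSG00000039004, chr13:38345107-38500302, plus strand), a ligand that hypertrophic chondrocytes are known to make, was concentrated in fewer types. CT2 had 458 and 546 CPM in WT and 538 and 573 CPM in Tbx1+/-, which was 2.78 times the next type and 40.1 times the lowest. Matured chondrocytes had 177 and 77.7 CPM in WT and 270 and 235 CPM in Tbx1+/-, and their libraries did not overlap those of CT2. The hypertrophic type was at 83.2 ± 4.05 CPM (SD, n = 4), with 77.6 to 86.2 CPM in the 4 libraries. CT1 had 32.4 ± 9.68 CPM (SD, n = 4), below every library of the hypertrophic type. The remaining 11 types lay between 13.2 and 23.2 CPM and their neighbours overlapped, with osteoclasts among them at 15 CPM. Bmp6 shares 7657 bases with the antisense gene 4930579J19Rik and 224 bases with Txndc5.

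**Figure D3:**
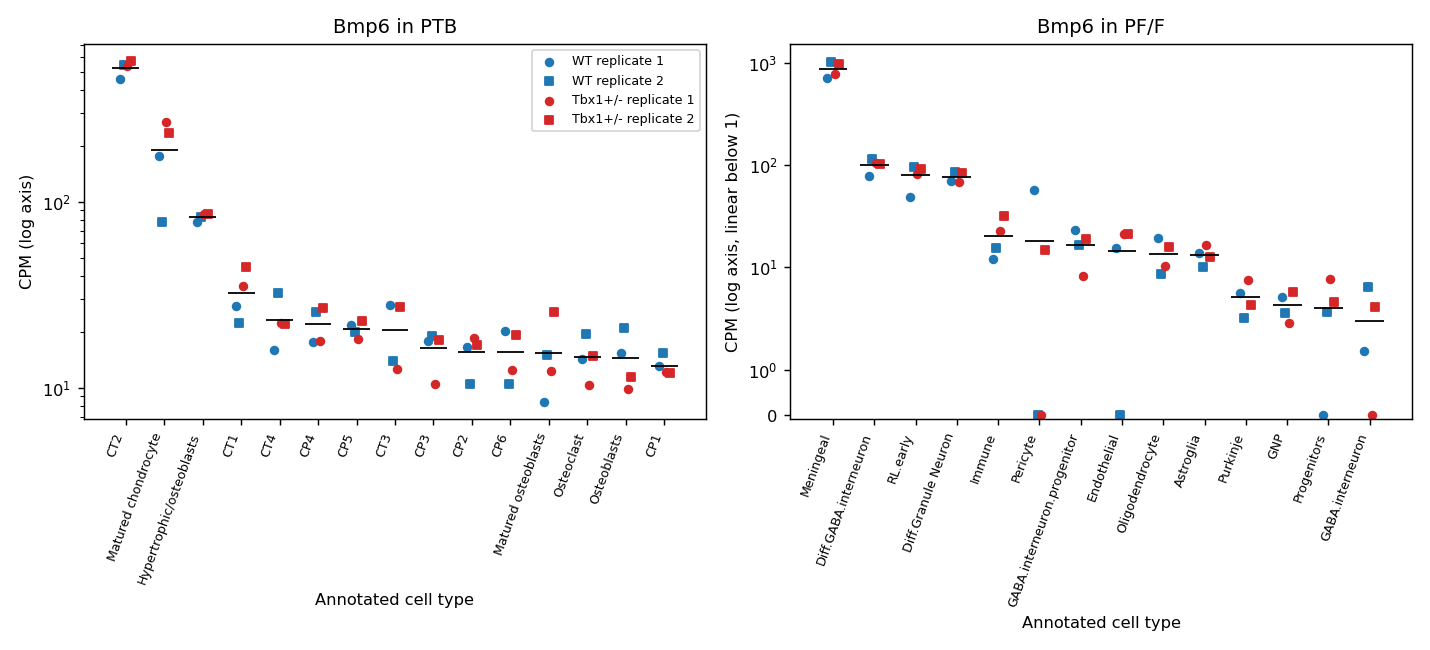
Level of Bmp6 in the 15 cell types of the PTB (left) and in 14 of the 16 of the PF/F (right), in CPM on a log axis that is linear below 1. Points are libraries (blue WT, red Tbx1+/-, circles replicate 1, squares replicate 2) and lines are means of 4 libraries. CT2 at 529 CPM and meningeal nuclei at 868 CPM stand above the other types shown of their tissue in every library.

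Bmp7 (ENSMUSG00000008999, chr2:172868012-172940321, minus strand), a ligand needed for kidney, eye and skeletal patterning, also led in CT2. There it was at 54.8 and 81.3 CPM in WT and 65.5 and 85.2 CPM in Tbx1+/-. CP3, a subtype with little Bmper, had 46.6 ± 2.56 CPM (SD, n = 4), and CT1 had 29.0 ± 7.51 CPM (SD, n = 4). CT2 lay above CP3 and CP3 above CT1 in all libraries. The lowest types were osteoclasts and CT3, at 4.93 and 4.47 CPM. CT2 was therefore the type with the most Bmp6 and Bmp7, and it also held 59.9 CPM of Bmp4 and 233 CPM of Bmp5.

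Among the antagonists, Bmper (ENSMUSG00000031963, chr9:23223076-23485200, plus strand) ranged from 104 to 959 CPM over the PTB types, with 4 of its 5 highest levels in CPs. Osteoblasts had 819 and 1081 CPM in WT and 968 and 967 CPM in Tbx1+/-. CP1 had 870 and 976 CPM in WT and 936 and 1034 CPM in Tbx1+/-, so the 2 types could not be ordered. CP2 followed at 777 ± 95.4 CPM, CP4 at 674 ± 92.0 CPM and CP5 at 588 ± 47.7 CPM (SD, n = 4 each), each overlapping its neighbour, and all CP2 libraries were below those of CP1. Matured osteoblasts had 316 ± 33.3 CPM (SD, n = 4), below every library of the hypertrophic type at 497 ± 6.60 CPM (SD, n = 4). CP3 and CP6 were low, at 212 ± 34.0 and 169 ± 21.5 CPM (SD, n = 4 each), and CP6 overlapped osteoclasts. Osteoclasts had 147 ± 16.5 CPM and CT3 104 ± 29.4 CPM (SD, n = 4 each). Between osteoblasts and CPs the ligand and the antagonist thus took different orders, with Bmper as high in osteoblasts as in CP1 and Bmp5 lower in osteoblasts than in every CP subtype.

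Chrd (ENSMUSG00000006958, chr16:20733127-20742384, plus strand), which encodes chordin, stayed at low counts in the PTB. It ranged from 1.18 CPM in osteoclasts to 10.2 ± 1.90 CPM (SD, n = 4) in CP2, and none of the 14 neighbouring pairs of types separated beyond their spread. CP2, CT2, CP3, CT1 and CP6 lay between 9.20 and 10.2 CPM. Chrd shares 1385 bases with Thpo on the other strand.

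Nog (ENSMUSG00000048616, chr11:89300638-89302332, minus strand), which encodes noggin and has a single exon, was near the detection limit. Its highest PTB mean was 5.61 ± 1.12 CPM (SD, n = 4) in CP1, from 73 UMIs in 2723 nuclei, with 6.10 and 4.98 CPM in WT and 4.42 and 6.93 CPM in Tbx1+/-. CT1 had 29 UMIs, and 1 library there, Tbx1+/- replicate 2, was at 10.6 CPM while the other three were at 1.49 to 2.94 CPM. All CP1 libraries lay above every library of osteoblasts, at 2.34 ± 0.357 CPM, and of osteoclasts, at 0.577 ± 0.490 CPM (SD, n = 4 each), but none of the neighbouring types in the order separated beyond their spread.

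Grem1 (ENSMUSG00000074934, chr2:113746164-113758646, minus strand), which encodes gremlin 1, had its highest PTB level in the hypertrophic type, at 11.1 and 4.22 CPM in WT and 10.3 and 8.03 CPM in Tbx1+/- from 180 UMIs. The mean of 8.42 ± 3.09 CPM (SD, n = 4) was 2.27 times that of CT1, whose libraries ran from 0 to 8.03 CPM and overlapped it. All other types were below 4 CPM.

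In the PF/F, 4 of the 6 ligands, Bmp2, Bmp5, Bmp6 and Bmp7, had their highest level in the meningeal type. Bmp6 in its 706 nuclei was at 710 and 1020 CPM in WT and 777 and 966 CPM in Tbx1+/-, which was 8.71 times the next type. Differentiated GABA interneurons at 99.6 ± 15.2 CPM, RL.early at 79.4 ± 21.6 CPM and differentiated granule neurons at 76.9 ± 8.98 CPM (SD, n = 4 each) overlapped one another. GNPs, from which granule neurons arise, had 4.3 CPM of Bmp6, and no GNP library reached the range of granule neurons. Bmp6 was thus counted in neurons of several lineages as well as in meningeal nuclei.

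Bmp5 was at 130 and 164 CPM in WT and 130 and 192 CPM in Tbx1+/- meningeal nuclei. Pericytes had 122 ± 41.5 CPM (SD, n = 4), from 25 UMIs in 74 nuclei, and overlapped them, while astroglia came next at 9.47 ± 2.99 CPM (SD, n = 4). Bmp7 was at 72.0 and 121 CPM in WT and 86.6 and 100 CPM in Tbx1+/- meningeal nuclei. It stood at 30.8 ± 9.12 CPM (SD, n = 4) in oligodendrocytes and at 10.2 ± 1.61 CPM (SD, n = 4) in GNPs, and these 3 types did not overlap in any library.

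Bmp4 had a different leading type. The oligodendrocyte type, whose marker list includes the precursor gene Pdgfra, had 71.9 and 81.2 CPM in WT and 84.4 and 87.2 CPM in Tbx1+/-. Meningeal nuclei had 46.1 ± 14.3 CPM (SD, n = 4), lower in every library, and RL.early had 7.85 ± 3.52 CPM (SD, n = 4), lower again. The remaining 13 types were below 2 CPM. Bmp2 reached 8.39 ± 3.58 CPM (SD, n = 4) in meningeal nuclei from 22 UMIs, and Bmp3 reached 4.09 ± 5.99 CPM (SD, n = 4) in the Progenitors type from 4 UMIs. Bmp3 had no UMI in meningeal nuclei, which allows up to 1.15 CPM there when 3 counts are taken as the limit for a count of 0. Such limits cover counting error only.

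Chrd was highest in the granule lineage. GNPs had 53.9 and 46.9 CPM in WT and 57.8 and 47.2 CPM in Tbx1+/-, which was 2.46 times the level of granule neurons, 21.0 ± 4.09 CPM (SD, n = 4). The libraries of these types did not overlap. Bmper had its lowest PF/F level in GNPs, 0.952 ± 0.214 CPM (SD, n = 4), although over all 16 types the correlation of the 2 genes was weak (r = -0.12, from log2(mean CPM + 1), as a description). Its highest levels were 49.3 ± 17.3 CPM in RL.early and 48.2 ± 8.76 CPM in differentiated GABA interneurons (SD, n = 4 each), which overlapped. Grem1 reached 6.38 ± 1.91 CPM (SD, n = 4) in differentiated GABA interneurons, from 102 UMIs, and its mean in the GABA.interneuron type, 6.64 CPM, rested on 15 UMIs. Nog reached 2.47 ± 0.347 CPM (SD, n = 4) in astroglia, from 67 UMIs, and its mean in RL.early, 3.04 CPM, rested on 7 UMIs.

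CPM should not be compared directly between genes of unequal length, because the counting included introns. The libraries were made with a 3' kit, so counts need not grow in proportion to the length of the gene or of its exons. The values per kilobase are therefore a description and not a correction. Per kilobase of gene, in the PTB type where each gene was highest, Bmp4 led at 11.9 ± 0.590 CPM per kb, followed by Bmp2 at 6.25 ± 0.968 and Bmp5 at 5.23 ± 0.310 CPM per kb (SD, n = 4 each). Bmper came to 3.66 ± 0.411, Bmp6 to 3.41 ± 0.319 and Nog to 3.31 ± 0.663 CPM per kb (SD, n = 4 each), and these 3 overlapped. Bmp3 had 2.83, Chrd 1.10, Bmp7 0.992 and Grem1 0.674 CPM per kb. In the PF/F, Bmp4 again led with 11.4 ± 0.931 CPM per kb, and Bmp6 and Chrd were level at 5.59 ± 0.956 and 5.56 ± 0.574 CPM per kb (SD, n = 4 each). Dividing by exon length instead put Bmper first in the PTB, at 198 CPM per kb of exon, and Bmp5 second, at 162. The order between genes therefore depended on which length was used, with Bmper spanning 262 kb of genome and Nog 1.70 kb.

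Pairs of members were compared across types by Pearson's r of log2(mean CPM + 1), as a description, since types share libraries and depth. Over the 15 PTB types, r was 0.80 for Bmp7 and Chrd, 0.74 for Bmp2 and Bmp3, 0.73 for Bmp5 and Bmper, and 0.66 for Bmp5 and Chrd. Over the 16 PF/F types it was 0.84 for Bmp4 and Bmp7, which share oligodendrocytes and meningeal nuclei, and 0.52 for Bmp5 and Bmp6.

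The genes most like each member were sought among 10660 genes in the PTB and 13083 in the PF/F that reached 20 CPM in a type. Each gene named is the best of that many over only 15 or 16 types, and the r that unrelated genes would reach was not computed. The likeness is therefore a description only. The gene nearest to Bmp4 was its antisense neighbour Gm15222 in both tissues (r = 0.95 in the PTB and 0.97 in the PF/F), and the gene nearest to Bmp5 in the PTB was its own antisense neighbour Gm26903 (r = 0.94), followed by Hmgcll1 (r = 0.89). Bmp6 was nearest to Dnajc6 in the PTB (r = 0.87), followed by Lin7c (r = 0.82) and the ligand gene Wnt4 (r = 0.81), and to its antisense neighbour 4930579J19Rik in the PF/F (r = 0.88). Bmp2 was nearest to Wipi1 (r = 0.94), Bmp3 to Snx30 (r = 0.92), Bmp7 to Slc41a1 (r = 0.89), Chrd to D630045J12Rik (r = 0.90) and Bmper to Sqle (r = 0.81) in the PTB. In the PF/F, Bmp5 was nearest to Igf2 (r = 0.96) and the collagen gene Col3a1 (r = 0.94), Chrd to Gm43847 (r = 0.88), Bmper to the glycine transporter gene Slc6a9 (r = 0.77) and Bmp7 to Gm20342 and to Bmp4 (r = 0.84 each). Nog and Grem1 did not reach the level of 10 CPM set for this comparison in either tissue.

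A list of 50 other BMP pathway genes was read beside the members. Among other ligands, Bmp8a was at 592 ± 56.9 CPM (SD, n = 4) in matured osteoblasts, and Gdf10 at 136 ± 26.1 CPM (SD, n = 4) in astroglia. Among the genes listed as other antagonists, Sost, an osteocyte product, reached 66.3 ± 19.9 CPM (SD, n = 4) in matured osteoblasts. Bmp2, Bmp3 and Bmp4 were also highest there, and whether Sost acts on them was not tested. Others led elsewhere, with Fstl1 at 739 ± 74.9 CPM in CT1 and Chrdl1 at 217 ± 9.80 CPM in CT3 (SD, n = 4 each). The type I receptor gene Bmpr1a was highest in CT3, at 302 ± 37.0 CPM, the type II receptor gene Bmpr2 in the hypertrophic type, at 308 ± 20.1 CPM, and the type I receptor gene Bmpr1b in CP2, at 175 ± 16.2 CPM (SD, n = 4 each). In the PF/F, Bmpr1b and Bmpr1a were highest in astroglia, at 444 ± 65.9 and 300 ± 51.2 CPM (SD, n = 4 each), a type in which none of the 6 member ligands exceeded 13.3 CPM. The immediate target genes had different leading types in the PTB, with Id3 at 171 ± 14.4 CPM in the hypertrophic type, Id2 at 95.8 ± 16.4 CPM in CP2, Dlx5 at 82.2 ± 13.4 CPM in CP1 and Id1 at 75.6 ± 14.8 CPM in CT2 (SD, n = 4 each). Among PF/F types, Id3 was highest in astroglia, at 172 ± 23.4 CPM, and Id2 in Purkinje cells, at 197 ± 17.7 CPM (SD, n = 4 each). There Id1 was highest in endothelial nuclei, at 156 ± 65.9 CPM (SD, n = 4). Of the inhibitory SMAD genes in the PTB, Smad7 was highest in matured osteoblasts, at 142 ± 23.1 CPM (SD, n = 4). Smad6 was highest in osteoblasts, at 263 ± 23.2 CPM (SD, n = 4).

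The study compared Tbx1+/- with WT within each cell type. Here this was done for 18 sets of nuclei, 8 in the PTB and 10 in the PF/F, with all CP subtypes pooled and all CT subtypes pooled. A gene was called at an adjusted p under 0.05 (edgeR quasi-likelihood test, Benjamini-Hochberg adjustment over the 7719 to 20756 genes tested) together with a change above 1.5-fold. Of 180 combinations of member and set, 118 had enough counts to be tested and 0 were called. The share called among all genes was 0% in 17 sets and 0.00778% in Purkinje cells, where the 1 gene called was Ttr, the choroid plexus transthyretin gene, named after its value was seen. At an unadjusted p under 0.05 there were 6 of the 118 combinations (5.08%), 3 higher and 3 lower in Tbx1+/-, beside 1.23% of all combinations of gene and set and 0.477% to 2.54% by set. With DESeq2 as well, no member was called. An exact permutation test of 2 libraries against 2 cannot go below p = 0.33.

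The largest change among the ligands with over 100 UMIs was that of Bmp6 in matured chondrocytes. The 4 values above, 177 and 77.7 CPM in WT and 270 and 235 CPM in Tbx1+/-, rested on 85, 32, 45 and 201 UMIs. Both Tbx1+/- libraries were above both WT libraries, with a log2 change of 0.96 (SE 0.35, unadjusted p = 0.0175, adjusted p = 1.00, edgeR). With the replicate number as a block, the log2 change was 1.11 (SE 0.27, adjusted p = 0.0358, edgeR), past the threshold. Between the replicate 1 libraries it was 0.60, and between the replicate 2 libraries 1.60. WT replicate 2 decides the size: without it the log2 change was 0.49 (unadjusted p = 0.204, edgeR), and without WT replicate 1 it was 1.70 (adjusted p = 0.0395, edgeR). In the same nuclei of WT replicate 2, the 5 erythroid genes summed to 13310 CPM, beside 929 to 1195 CPM in the other libraries. There the chondrocyte marker list was also lowest, at 4510 CPM, beside 7504 to 11390 CPM. Their part in the Bmp6 value was not tested.

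In osteoblasts Bmp6 was at 15.4 and 20.9 CPM in WT and at 9.87 and 11.5 CPM in Tbx1+/-. The groups did not overlap, and the log2 change was -0.78 (SE 0.22, unadjusted p = 0.0115, adjusted p = 1.00, edgeR). The mean over the libraries, 14.4 CPM, was no higher than that of osteoclasts, 14.65 CPM. The part of free RNA in the osteoblast value was not tested. In the hypertrophic type, Bmp6 was at 77.6 and 82.8 CPM in WT and at 86.2 CPM in both Tbx1+/- libraries. Chrd in the hypertrophic type was at 4.75 and 2.64 CPM in WT and at 1.99 and 0.784 CPM in Tbx1+/-, from 4 to 26 UMIs a library. Its log2 change was -1.42 (SE 0.56, unadjusted p = 0.0405, adjusted p = 1.00, edgeR). It ranged from -0.89 without WT replicate 1 (unadjusted p = 0.316, edgeR) and -0.93 without Tbx1+/- replicate 2 to -2.24 without Tbx1+/- replicate 1. Bmp3 in osteoclasts was at 9.61 and 6.59 CPM in WT and at 14.3 and 15.1 CPM in Tbx1+/-, a log2 change of 0.86 (SE 0.32, unadjusted p = 0.0329, adjusted p = 1.00, edgeR). Osteoclasts also held 3428 to 5237 CPM of the osteoblast marker list, whose lowest library was WT replicate 2, as it was for Bmp3. The part of that RNA in the Bmp3 value was not tested.

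In the PF/F, Bmper in meningeal nuclei was at 21.6 and 41.6 CPM in WT and at 9.47 and 18.6 CPM in Tbx1+/-, from 7 to 21 UMIs a library. The log2 change was -1.13 (SE 0.48, unadjusted p = 0.0356, adjusted p = 1.00, edgeR). It was -1.19 between the replicate 1 libraries and -1.16 between the replicate 2 libraries. It ranged from -0.61 without WT replicate 2 (unadjusted p = 0.344, edgeR) to -1.68 without Tbx1+/- replicate 2. The meningeal marker list was at 1471 and 2172 CPM in WT and at 1757 and 1958 CPM in Tbx1+/- in these nuclei, and the choroid plexus list at 101 and 107 CPM in WT and at 164 and 268 CPM in Tbx1+/-. Bmp5 in differentiated GABA interneurons was at 1.14 and 0.915 CPM in WT and at 3.61 and 3.33 CPM in Tbx1+/-, from 3 to 17 UMIs a library. Its log2 change was 1.73 (SE 0.52, unadjusted p = 0.00926, adjusted p = 1.00, edgeR). There the choroid plexus list was at 79.9 CPM in both WT libraries and at 104 and 229 CPM in Tbx1+/-. The part of choroid plexus RNA in the Bmper and Bmp5 values was not tested. With all libraries and no replicate block, none of these 6 combinations passed the adjustment over all genes. Each was above an unadjusted p of 0.05 without at least 1 of the libraries. With 1 library left out, the log2 change ranged from 1.63 to 1.85 for Bmp5 in differentiated GABA interneurons, from 0.60 to 1.15 for Bmp3 in osteoclasts and from -0.99 to -0.56 for Bmp6 in osteoblasts.

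The remaining values are those of the members in the tested set of nuclei where each was highest, apart from Bmp6 in matured chondrocytes, given above. CT2, where Bmp6 was highest, was tested only within pooled CT. There Bmp6 was at 88.2 and 158 CPM in WT and at 139 and 209 CPM in Tbx1+/-, which overlapped. The mean of Bmp6 was 529 CPM in CT2 and 32.4 CPM in CT1, so the pooled level also depends on the share of CT2 nuclei in a library. The part of subtype shares in the values of pooled CT, pooled CPs and all annotated nuclei was not tested. Bmp5 in all CPs was at 384 and 428 CPM in WT and at 429 and 438 CPM in Tbx1+/-, a log2 change of 0.10 (SE 0.11, edgeR). Bmper in osteoblasts changed by 0.01 on the log2 scale (SE 0.15, edgeR), and its libraries overlapped. Bmp4 in matured osteoblasts changed by -0.02 (SE 0.19), Bmp3 by 0.19 (SE 0.26) and Bmp2 by 0.28 (SE 0.21), and for Bmp2 both Tbx1+/- libraries were above both WT libraries. Bmp7 in CT changed by 0.03 (SE 0.23). Bmp6 in meningeal nuclei changed by 0.02 (SE 0.30), Bmp5 by 0.14 (SE 0.27) and Bmp7 by -0.03 (SE 0.29). Bmp4 in oligodendrocytes changed by 0.19 (SE 0.20) and Chrd in GNPs by 0.08 (SE 0.16). Chrd in CPs was at 8.97 and 8.50 CPM in WT and at 7.44 and 6.40 CPM in Tbx1+/-, which did not overlap, with a log2 change of -0.33 (SE 0.20, unadjusted p = 0.142, edgeR). Nog in CPs changed by 0.01 (SE 0.38) and in astroglia by 0.09 (SE 0.37). Grem1 changed by 0.19 (SE 0.43) in the hypertrophic type and by 0.42 (SE 0.39) in differentiated GABA interneurons, and Bmper by -0.47 (SE 0.40) in RL.early. The last value turned to 0.056 without the 8% of nuclei with the most UMIs and to 0.10 without Tbx1+/- replicate 2. None of these was at an unadjusted p under 0.05, including changes larger than their SE such as that of Chrd in CPs.

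**Figure D4:**
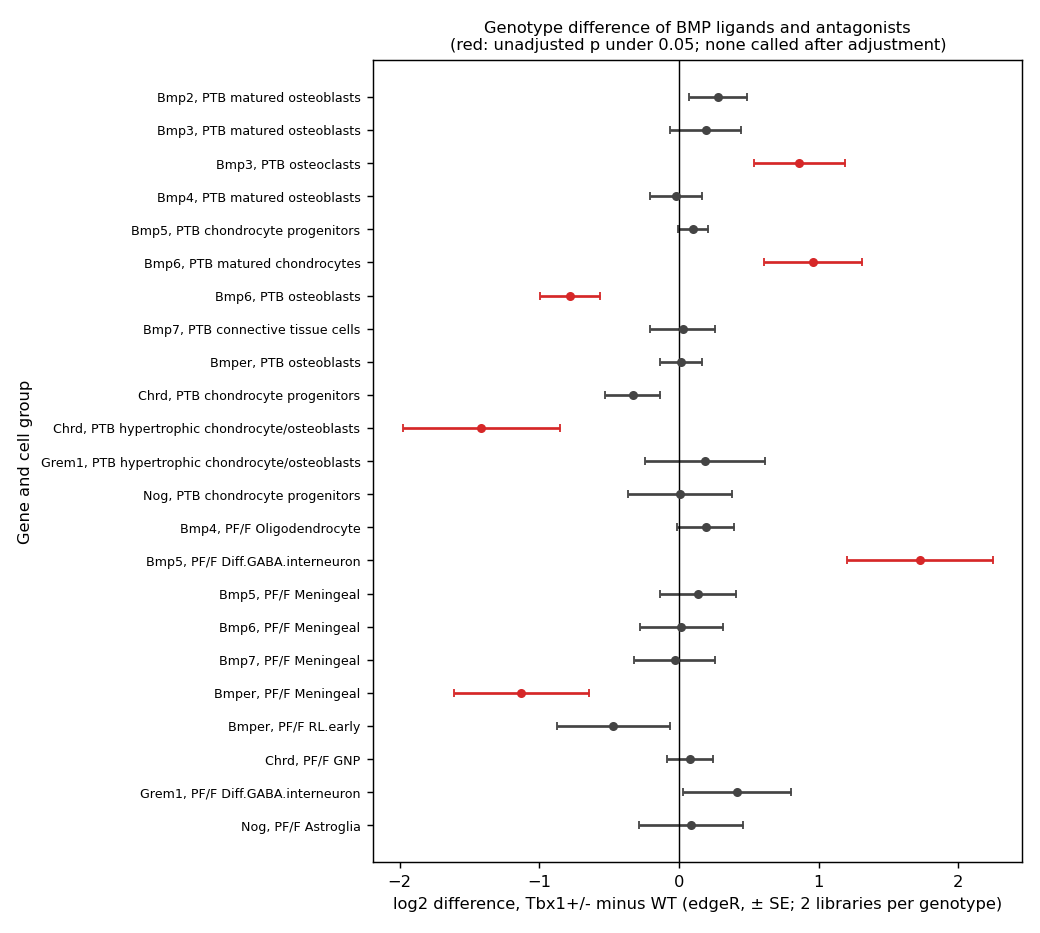
Log2 difference between Tbx1+/- and WT, from edgeR with bars of 1 SE and 2 libraries per genotype. Drawn is each member in its highest set of nuclei per tissue, among the cell-type sets where it was tested. The 6 combinations at an unadjusted p under 0.05 are drawn in red. The points run from -1.42 for Chrd in the hypertrophic type to 1.73 for Bmp5 in differentiated GABA interneurons, with Bmp6 in matured chondrocytes, at 0.96, the highest among points of over 100 UMIs.

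Over all annotated PTB nuclei, the 10 members had a median log2 change of 0.02, with 6 higher and 4 lower, beside a median of -0.003 over all genes tested. In CPs the median was 0.02 with 6 higher, and in osteoblasts -0.08 with 4 of 10 higher. In the hypertrophic type it was -0.17, with 3 higher and 7 lower. Over all annotated PF/F nuclei it was 0.08, with 8 higher and 2 lower. The medians over all genes tested were 0.003 in CPs, 0.009 in osteoblasts, -0.005 in the hypertrophic type and 0.003 over all annotated PF/F nuclei. The shares of all genes higher and lower were not counted, so the counts of members are a description only. Of the other 50 pathway genes, 618 of 900 combinations with a set could be tested and 0 were called. At an unadjusted p under 0.05 there were 8 (1.29%), a share near the 1.23% over all genes, so they are listed with nothing read from them. None of the 75 tested combinations of the genes listed as other ligands, Bmp1 included by its name, was among them. Of the other antagonists, Chrdl1 was higher in osteoblasts (log2 change 0.36, SE 0.13), Sostdc1 higher over all PF/F nuclei (1.05, SE 0.30) and Fst lower in GNPs (-1.14, SE 0.39). The receptor gene Bmpr1b was lower in the hypertrophic type (-0.51, SE 0.18), and the co-receptor gene Rgmb was higher in oligodendrocytes (0.91, SE 0.31). Of the SMADs and targets, Smad7 (-0.87, SE 0.32) and Id1 (-0.78, SE 0.32) were lower in RL.early, and Tob1 was lower in oligodendrocytes (-1.12, SE 0.38). All these had adjusted p of 1.00 in edgeR. The choroid plexus marker list moved with genotype in the same nuclei. It was at 1516 and 1461 CPM in WT and at 2907 and 4414 CPM in Tbx1+/- in RL.early, and at 117 and 119 CPM in WT and at 174 and 327 CPM in Tbx1+/- over all annotated PF/F nuclei. Its part in the values of Sostdc1, Smad7, Id1 and, in RL.early, Bmper was not tested.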

How the data were processed

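The values are deposited counts: whole UMIs for each gene in each barcode. The authors obtained them from Cell Ranger 7.0.0 (mm10, introns included), without their later limits on nuclei and without their SoupX correction for free RNA, which was not repeated here. Cell types are those the authors annotated after clustering. CP1 to CP6 and CT1 to CT4 were each pooled by name for the tests. Values of 2 PF/F types are not reported here. No doublet removal is described, so the 8% of nuclei richest in UMIs were dropped as an alternative. The 10 members, the 50 other pathway genes and the marker lists were chosen with earlier results of these data known.

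UMIs were summed per library and type with Python 3.11.15 (numpy 2.4.6, pandas 2.3.3), and the 8 libraries were the replicates. Genotypes were compared within a tissue with edgeR 4.0.16 in R 4.3.3 (filterByExpr, TMM, quasi-likelihood test without a batch term, Benjamini-Hochberg adjustment), which was tested on simulated data. The SE of a log2 change was derived from the change and its F statistic. Members are named in every type, with fitted changes in the tested class of highest level and wherever the unadjusted p was under 0.05. Other pathway genes are named at an unadjusted p under 0.05 or, chosen after their values were seen, as examples of their group.

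The study describes 2 batches of animals, and the sample titles give only a replicate number. Libraries with 1 replicate number were taken here to form a batch. The deviations of same-numbered libraries from their genotype means correlated at 0.156 to 0.550 across genes. The fits were repeated with DESeq2 1.42.0, RLE factors, the replicate block, unfiltered genes, nuclei of at least 2000 genes and each library left out. Coordinates and gene lengths are from GENCODE vM21 of GRCm38, in which 99.6% of features were found by identifier, and promoters from RefSeq. In the annotated nuclei of both tissues, lists of other cell types served as checks. In the PTB, muscle genes reached 802 CPM in osteoclasts and neuron genes 1966 CPM in CP6. The Purkinje list reached 2837 CPM in CT3, with Foxp2 at 2835 CPM. The astroglia list reached 1484 CPM in CP3, with Slc1a3 at 1455 CPM.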

Additional observations from a re-analysis of the deposited data

Results flagged for a closer look

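The Bmp6 change between genotypes went opposite ways in 2 PTB classes. In matured chondrocytes both Tbx1+/- libraries were above both WT libraries, and in osteoblasts both were below. The mean of Bmp6 in osteoblasts, 14.4 CPM, was no higher than in osteoclasts, 14.65 CPM. Without WT replicate 2 the log2 change was 0.49 in matured chondrocytes and -0.56 in osteoblasts. With all libraries, the log2 change in matured chondrocytes minus that in osteoblasts was 1.74. The difference itself was not tested, and with 2 libraries a genotype an exact two-sided permutation test could not have gone below p = 0.33.

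PTB barcodes with at least 1000 genes and no annotation were outside the comparisons above, and 3 members were higher there than in annotated nuclei in all 4 libraries, while 6 were lower in all 4. Over the 23060 features with a UMI in every library, 39.4% were higher and 25.4% lower in this way, so the counts of members are a description only. Bmp6 was at 84.2 ± 10.6 CPM (SD, n = 4), beside 46.8 CPM in annotated nuclei, Bmp7 at 18.6 ± 1.79 CPM (SD, n = 4), beside 17.5 CPM and so within 1 SD, and Grem1 at 4.36 ± 1.10 CPM (SD, n = 4), beside 2.87 CPM. Among the lower ones, Bmp5 was at 97.1 ± 5.79 CPM, beside 243 CPM, and Bmper at 240 ± 9.88 CPM (SD, n = 4 each), beside 590 CPM. In unannotated PF/F barcodes Bmper was at 14.1 ± 1.33 CPM (SD, n = 4), beside 11.6 CPM in annotated nuclei, and 20.2% of the 20611 features with a UMI in every library were higher there in all 4 libraries. Bmp6 at 38.4 ± 2.72 CPM, Bmp7 at 3.83 ± 1.24 CPM and Chrd at 16.1 ± 4.97 CPM (SD, n = 4 each) were lower there in all 4, beside 56.2, 6.30 and 20.8 CPM in annotated nuclei, as were 28.2% of those features. The cell types of these barcodes are not given by the annotation used here.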

How the results depend on the processing

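No member was called under RLE factors, no filter, DESeq2 or the nucleus limits, and Bmp6 in matured chondrocytes was called with the replicate block and without WT replicate 1. Counts of called genes over all genes, 0 in every set but Purkinje cells (1), moved as follows, and the cause was not tested. With the replicate block they were 24 in CT, 18 in matured chondrocytes, 4 in matured osteoblasts, 3 in osteoclasts, 24 in meningeal nuclei, 11 in RL.early, 2 in oligodendrocytes, and 3 each in GNPs, astroglia, differentiated GABA interneurons and Purkinje cells. Without a filter on low counts they were 17 in the hypertrophic type, 14 in meningeal nuclei, 10 in matured chondrocytes, 9 in matured osteoblasts, 3 each in astroglia and RL.early, and 1 each in CT, differentiated GABA interneurons and oligodendrocytes. DESeq2 called 1 in astroglia, and without the 8% of nuclei with the most UMIs Purkinje cells had 0.

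Leaving out 1 library gave 0 to 206 calls in osteoclasts, 7 to 47 in meningeal nuclei, 0 to 39 in granule neurons, 1 to 38 in astroglia, 0 to 33 in osteoblasts, 6 to 27 in matured chondrocytes, 1 to 24 in matured osteoblasts, 1 to 19 in Purkinje cells, 1 to 10 in differentiated GABA interneurons, 0 to 7 in oligodendrocytes, 0 to 5 in RL.early, 1 to 2 in GNPs, 0 to 2 in the hypertrophic type, and 0 in CPs, CT and all annotated nuclei of either tissue. The lone library left is assumed to vary like the other genotype.

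Log2 changes turned sign in 9 cases beside those with a library left out, 8 of them from values near 0. Nog in CPs was -0.0050 without a filter, -0.037 with the replicate block and -0.014 in nuclei with at least 2000 genes. In those nuclei Bmp6 was -0.082 in meningeal nuclei and Chrd -0.0064 in GNPs. Bmp7 in meningeal nuclei was 0.0025 without a filter. Without the 8% of nuclei with the most UMIs, Bmper was -0.0022 in osteoblasts and Nog -0.024 in astroglia, and Bmper in RL.early went from -0.47 to 0.056. With 1 library left out, the ranges that crossed 0 were, in matured osteoblasts, -0.12 to 0.66 for Bmp3 and -0.073 to 0.044 for Bmp4. In the other PTB classes they were -0.21 to 0.27 for Bmp7 in CT, -0.50 to 0.37 for Nog in CPs, -0.29 to 1.11 for Grem1 in the hypertrophic type and -0.18 to 0.21 for Bmper in osteoblasts. In meningeal nuclei they were -0.15 to 0.38 for Bmp5, -0.20 to 0.28 for Bmp6 and -0.34 to 0.37 for Bmp7. In other PF/F types they were -0.093 to 0.37 for Nog in astroglia, -0.14 to 0.76 for Grem1 in differentiated GABA interneurons, -0.097 to 0.22 for Chrd in GNPs and -1.09 to 0.10 for Bmper in RL.early. The replicate block changed the call of no other member. Of 84 levels recomputed, 82 moved by less than 1 SD. Those with 1 library left out could not have moved by 1 SD, because the SD was taken over the same libraries. Their part of this count therefore shows nothing about stability. In nuclei with at least 2000 genes, Bmp4 in matured osteoblasts was 78.4 CPM and Bmp7 in meningeal nuclei 73.1 CPM.

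In the PTB, the leading type of Nog held 73 UMIs over 4 libraries, that of Chrd 172 and that of Grem1 180.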
